A study of Caenorhabditis elegans with 2 samples.

Results

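RNA polymerase II was mapped in whole Caenorhabditis elegans larvae, and 503 of the 3052 optimal peaks (16.5%, 95% interval 15.2 to 17.8%) had their summit deep inside a gene, in an intron and away from gene ends. A peak was counted here when its summit, the position of highest signal, lay over 500 bp from the annotated 5′ and 3′ end of every protein-coding gene, in no protein-coding exon, and inside a protein-coding gene. The choice used positions only and no signal. The study was chromatin immunoprecipitation followed by sequencing (ChIP-seq) with an antibody to AMA-1, the catalytic subunit of the enzyme, in L3 larvae of the N2 strain, the reference wild type of the species. The labels give 1 group with 2 biological replicates of pooled males and females and fragments of 150 to 350 bp, with no mutant, transgene or treatment, and the control libraries they point to were not analysed here. No other condition was assayed and no test between conditions was made, and a whole-larva signal averages over all tissues. Positions are in ce11, which is the assembly WBcel235.

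RNA polymerase II makes messenger RNAs, most microRNAs, many small nucleolar RNAs and the spliced leader RNAs, while RNA polymerase III makes transfer RNAs. It is often most concentrated where it starts and where it ends a transcript, so signal far inside an intron can mark an alternative promoter of the host gene, a smaller gene nested in the intron, an enhancer, or polymerase passing through. Worm introns are mostly short, long ones are often found near the start of a gene, and the annotated start of many worm transcripts is the site at which a spliced leader was joined on (trans-splicing) and not the site of initiation.

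Nested microRNA genes whose mature products share a seed, the bases 2 to 8 that pair with target messages, lay at the intronic summits in several families, printed here with the seed in capitals and in DNA letters as in the RefSeq WBcel235 assembly. These were picked for their shared seeds after their values had been seen. In an intron of F09A5.3 the antisense cluster of mir-54, mir-55 and mir-56 shared one seed:
mir-54, chrX:13145011-13145034, minus strand: tACCCGTAatcttcataatccgag
mir-55, chrX:13144842-13144864, minus strand: tACCCGTAtaagtttctgctgag
mir-56, chrX:13144706-13144727, minus strand: tACCCGTAatgtttccgctgag
In intron 11 of gcn-1, which encodes a regulator of the kinase GCN2, mir-229, mir-64 and mir-66 shared another seed:
mir-229, chrIII:2172459-2172484, plus strand: aATGACACtggttatcttttccatcg
mir-64, chrIII:2172869-2172891, plus strand: tATGACACtgaagcgttaccgaa
mir-66, chrIII:2173124-2173146, plus strand: cATGACACtgattagggatgtga
In 2 introns of gid-2, mir-81 and mir-82 had the same seed although they lie on opposite strands:
mir-81, chrX:2431138-2431159, plus strand: tGAGATCAtcgtgaaagctagt
mir-82, chrX:2435273-2435294, minus strand: tGAGATCAtcgtgaaagccagt
The other pair, mir-62 in ugt-50 and mir-90 in K01F9.2, also shared a seed, on different chromosomes:
mir-62, chrX:12692644-12692665, plus strand: tGATATGTaatctagcttacag
mir-90, chrIII:8874001-8874023, minus strand: tGATATGTtgtttgaatgcccct

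Nested genes for RNAs of the splicing machinery and transfer RNAs lay at other summits, not all of them strong. They are printed to show which RNAs these were. The gene sup-6, in an intron of F58G1.7, encodes a U1 small nuclear RNA, and the capitals mark its 9 bases that pair with 5′ splice sites:
sup-6, chrII:12944803-12944967, minus strand: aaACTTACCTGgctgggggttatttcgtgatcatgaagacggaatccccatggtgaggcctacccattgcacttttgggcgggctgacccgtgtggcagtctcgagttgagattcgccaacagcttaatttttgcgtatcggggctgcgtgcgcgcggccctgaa
The glutamate receptor gene glr-2 held 3 genes for SL2 RNAs, which supply the leader that is spliced onto messages of downstream operon genes. The capitals mark the run up to the first AAG before a GT, which is the leader, of 22 or 23 bases:
sls-2.16, chrIII:7141391-7141499, plus strand: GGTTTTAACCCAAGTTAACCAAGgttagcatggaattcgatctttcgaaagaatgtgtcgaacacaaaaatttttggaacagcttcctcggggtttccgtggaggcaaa
sls-2.18, chrIII:7142291-7142397, plus strand: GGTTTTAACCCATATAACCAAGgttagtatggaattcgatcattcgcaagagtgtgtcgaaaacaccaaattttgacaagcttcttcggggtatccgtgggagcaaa
sls-2.5, chrIII:7140447-7140553, minus strand: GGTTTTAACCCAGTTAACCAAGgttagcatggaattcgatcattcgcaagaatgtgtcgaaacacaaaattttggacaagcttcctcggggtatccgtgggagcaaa
The transfer RNA genes C02B4.t2 (tyrosine) in nhr-17 and K11H12.t1 (selenocysteine) in K11H12.8 are shown with their B box, the internal promoter element of RNA polymerase III, in capitals, searched as GTTCGANNC:
C02B4.t2, chrX:12665228-12665311, plus strand: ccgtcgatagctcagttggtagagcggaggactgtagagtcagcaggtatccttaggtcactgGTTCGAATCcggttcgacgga
K11H12.t1, chrIV:658181-658266, plus strand: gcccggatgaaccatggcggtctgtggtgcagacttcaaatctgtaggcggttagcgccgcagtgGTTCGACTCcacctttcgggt

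Where a summit lay just upstream of an annotated internal transcript start, the stretch from 20 bases before the summit to 20 bases into the shorter transcript is shown for ubq-1, the polyubiquitin gene, and zip-2, a bZIP transcription factor gene of the response to infection. The 6 bases before the annotated start are in capitals. In both they read TTTCAG, the letters of the worm splice acceptor:
ubq-1, chrIII:5940763-5941005, plus strand: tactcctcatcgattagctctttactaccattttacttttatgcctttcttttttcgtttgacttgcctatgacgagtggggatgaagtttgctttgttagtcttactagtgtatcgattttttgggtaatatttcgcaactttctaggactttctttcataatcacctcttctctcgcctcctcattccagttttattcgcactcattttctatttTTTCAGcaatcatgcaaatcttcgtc
zip-2, chrIII:833961-834107, plus strand: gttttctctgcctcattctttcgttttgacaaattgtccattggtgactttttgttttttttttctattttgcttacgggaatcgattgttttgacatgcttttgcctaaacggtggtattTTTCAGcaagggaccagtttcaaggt
For strong summits near neither an internal start nor a noncoding gene, the 200 bases around the summit are shown on the host's strand. The capitals mark the runs GAGAGA or its complement TCTCTC, the palindrome CACGTG, and CTGCGTCTC. The host mdt-26 encodes a subunit of the Mediator complex and epg-9 an autophagy factor, and the start of the mdt-26 window reaches into an exon:
mdt-26, chrII:5661710-5661909, plus strand: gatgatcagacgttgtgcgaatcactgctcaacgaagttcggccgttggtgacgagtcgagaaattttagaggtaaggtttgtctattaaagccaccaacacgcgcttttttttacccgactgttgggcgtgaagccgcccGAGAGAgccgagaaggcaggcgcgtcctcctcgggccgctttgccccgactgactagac
epg-9, chrIV:2602048-2602247, plus strand: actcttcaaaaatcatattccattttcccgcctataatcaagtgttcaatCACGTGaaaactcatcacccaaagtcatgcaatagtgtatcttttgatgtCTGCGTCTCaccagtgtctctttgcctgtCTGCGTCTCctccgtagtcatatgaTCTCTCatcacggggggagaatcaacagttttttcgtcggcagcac
Y111B2A.12, chrIII:12612530-12612729, plus strand: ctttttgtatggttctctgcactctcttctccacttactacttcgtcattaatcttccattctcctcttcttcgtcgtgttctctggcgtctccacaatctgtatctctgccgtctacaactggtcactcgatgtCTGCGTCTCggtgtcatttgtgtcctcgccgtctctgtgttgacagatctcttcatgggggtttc

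Summits of this kind were fewer per base than optimal summits in general. The bases that meet the same positional rule, called eligible bases below, made up 27.1 Mb or 27.1% of the genome, and they held 18.5 summits per Mb against 30.4 over the whole genome. By position, 464 optimal summits lay near both a 5′ and a 3′ end, 659 near 5′ ends only, 601 near 3′ ends only, 375 in exons away from ends and 450 between genes. In that order their densities were 94.7, 47.3, 49.1, 22.9 and 17.5 per Mb. Exons away from ends and places between genes thus also lay below 30.4. The share of intronic summits away from ends was 15.0% among the 100 strongest pooled regions (8.65 to 23.5%), 17.4% at ranks 1001 to 3052, and 23.7% at ranks 6105 to 30000, beyond the optimal list. The share among the weakest regions was thus the one closest to the 27.1% of the genome that was eligible.

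The signal in the deposited list, a value of the authors' on an unstated scale, ran from 57.9 to 762 with a median of 74.4 over the 503 peaks, against 79.2 over all optimal peaks. The −log10 q value stood at the list's maximum in 430 of them, and in 2667 of all 3052 optimal peaks, and therefore separated few. The peaks were 320 bp wide in 492 cases, which is the most common width of the list, and 129 touched a coding exon although the summit did not. In all, 502 summits lay in 1 protein-coding gene and 1 lay in both F19H8.2 and tps-2. Just inside the limit of 500 bp lay summits of apl-1 (506 bp from the nearest end, signal 68.4) and cyc-2.1 (506 bp, signal 128), and just outside it those of Y56A3A.7 (497 bp, 59.5) and Y48G8AR.8 (494 bp, 66.6).

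The strongest of all was in mdt-26 (WBGene00016115, chromosome II, summit 5661810), 629 bp inside the gene in an intron of 386 bp. Its signal was 762, and it ranked 10 in replicate 1 and 9 in replicate 2. Next came the stronger of the pair beside sup-6 in F58G1.7. The summit at 12944763 had a signal of 736 and ranked 19 and 1, and that at 12944970 had a signal of 316 and ranked 440 and 1, since both matched the same replicate 2 region. The first summit of F09A5.3, at 13145189, had a signal of 399 and ranks of 44 and 22. These peaks were thus among the strongest of both replicates, which was not the rule, as described further on.

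Long introns held most summits for their size. The intron around a summit, taken as the gap between merged exons of the host, had a median length of 2540 bp (interquartile range 913 to 6162 bp, longest 20948 bp), against 1057 bp for the intron around an eligible base. In introns over 5000 bp lay 148 summits (29.4%, 25.5 to 33.6%), against 12.6% of eligible bases. The density was 11.7 summits per Mb in introns up to 500 bp, 10.6 at 500 to 1000 bp, 27.2 at 2000 to 5000 bp, 39.4 from 5000 bp to the longest class, and 53.7 in that class, of introns over 10 kb. The longest introns with a summit included those of lin-1, an ETS transcription factor gene, with 20948 bp and 1 summit (signal 87.1, ranks 1840 and 872), and of Y48C3A.5, with 19925 bp and 3 summits (signals 68.3, 164 and 81.9). Intervals cover counting error only, and they are too narrow where summits share an intron.

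**Figure D1:**
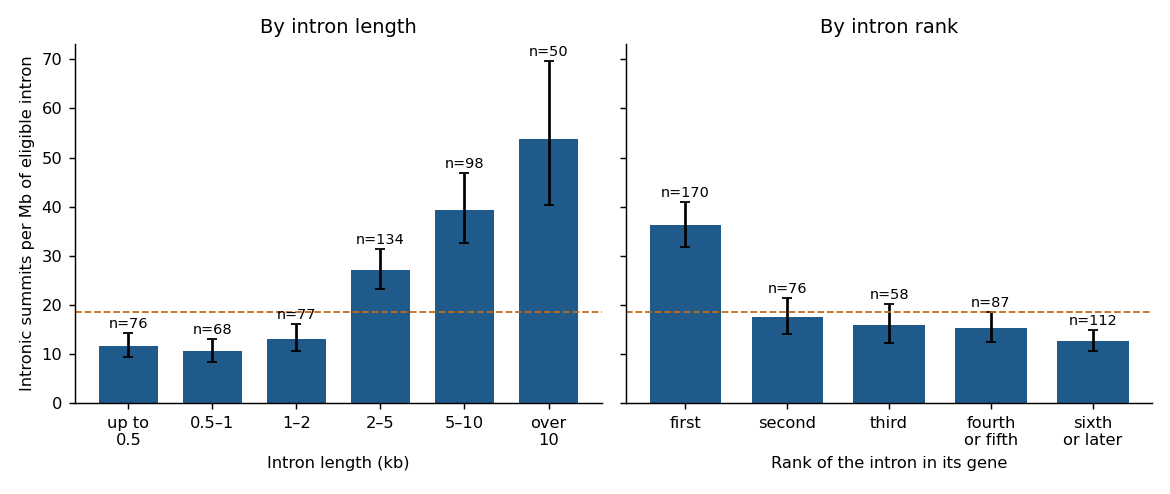
Intronic summits per Mb of eligible intron sequence by intron length (left, kb) and by rank of the intron in its gene (right). Bars give the density with its 95% exact interval, n is the number of summits, and the dashed line is the density over all eligible bases, 18.5 per Mb. Density is highest above 10 kb, at 53.7 per Mb, and in first introns, at 36.3 per Mb.

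First introns also held more than their share. There were 170 summits in the first intron of the host (33.8%, 29.7 to 38.1%), against 17.2% of eligible bases, which is 36.3 per Mb. Introns of rank 2 had 17.5 per Mb, those of rank 3 had 16.0, those of rank 4 and 5 had 15.3, and later ones 12.7. Length and rank were not the same thing. Among introns over 5000 bp, first introns had 46.6 summits per Mb and later introns 40.8, and among introns up to 1000 bp they had 19.3 and 10.4. The higher density of long introns was therefore seen in first and in later introns alike. Of the 365 introns with a summit, 80 held at least 2, and these 80 held 218 summits. Between the 138 neighbouring pairs in 1 intron the distance ran from 201 to 7111 bp with a median of 1015 bp.

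A minority of the summits lay near an annotated alternative start of the host. Within 500 bp of an internal transcript start lay 99 summits (19.7%, 16.3 to 23.4%), against 9.48% of eligible bases. Internal transcript ends did not show this, with 8 summits (1.59%, 0.689 to 3.11%) against 2.02% of bases. The upstream side held most of them. The 500 bp before an internal start held 75 summits, or 47.3 per Mb, and the 500 bp from the start onward held 26, or 23.8 per Mb, with 2 summits counted on both sides. Farther off the densities were 40.5 per Mb in the next 500 bp before a start and 33.7 in the next 500 bp past it, so density was not raised only next to the starts. Hosts with at least 1 internal start held 426 of the summits (84.7%, 81.2 to 87.7%) and 59.0% of the eligible bases.

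**Figure D2:**
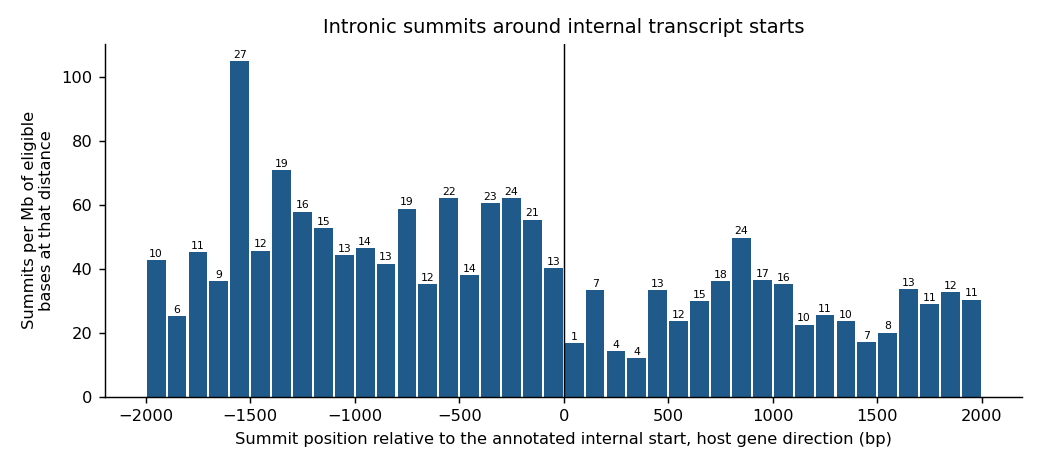
Density of intronic summits by position relative to annotated internal transcript starts, in host gene direction, in bins of 100 bp. The number on a bar is the number of pairs of a summit and a start, and a summit counts once for each start of its host, so genes with many starts weigh more, as in the bin with 27 pairs. The density is 40.2 per Mb in the 100 bp before a start (13 pairs) and 16.8 in the 100 bp past it, which rests on 1 pair.

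The strongest summits near internal starts came from varied hosts. In T26A8.4 the summit lay 288 bp upstream of the start, with a signal of 339 and ranks of 35 and 288. In R02F2.1 it lay 250 bp upstream, with 302 and ranks of 51 and 267. In ubq-1 it lay 203 bp upstream, with 271 and ranks of 78 and 98. All 3 were in the first intron of the host and ranked within the strongest 300 peaks of both replicates. The summit of C33A12.3, also near the small nuclear RNA gene smy-1 and inside smy-2, annotated as snoRNA, lay 217 bp upstream (193, ranks 383 and 128). After it, zip-2 had its summit 107 bp upstream (signal 180, ranks 236 and 330). The chaperone gene hsp-90 had it 190 bp past a start (176, ranks 101 and 659), and the chaperone gene dnj-20 412 bp upstream (171, ranks 207 and 1008). In tent-5, a gene for a terminal nucleotidyltransferase, the ranks lay far apart, at 133 and 15728. The hypoxia gene hif-1 had a summit 95 bp upstream of an internal start (signal 135, ranks 374 and 803). The prolyl hydroxylase gene egl-9, whose product marks HIF-1 for removal when oxygen is present, had 5 summits, of which the strongest (134, ranks 519 and 685) lay 261 bp past an internal start.

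The letters before internal starts near summits were compared with those before other starts, since a trans-spliced start follows a splice acceptor. Of 96 internal starts near summits, 39 directly followed AG (40.6%), against 21.8% of the 7769 other internal starts within 500 bp of eligible intron and 27.6% of the 19973 gene 5′ ends. The full TTTCAG, as printed for ubq-1 and zip-2, preceded 17 (17.7%), against 8.93% and 12.3%. The starts were not matched for having intron directly before them, which lying near an intronic summit favours. Whether these starts are trans-spliced was not tested.

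Genes for noncoding RNAs lay at a larger share of the summits. Inside a noncoding gene or within 500 bp of its 5′ end lay 137 (27.2%, 23.4 to 31.4%), against 12.0% of eligible bases. The 4 classes of short structured or processed RNAs together, snoRNA, snRNA, tRNA and miRNA, had 60 summits (11.9%, 9.23 to 15.1%), against 1.11% of the bases. Their median signal was 93.8, against 77.5 for the other summits near an internal start and 72.7 for the 282 near neither kind of feature. Their introns were short, with a median of 550.5 bp. The 7 strongest of them were among the 100 strongest peaks of the list, out of 15 intronic summits there.

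**Figure D3:**
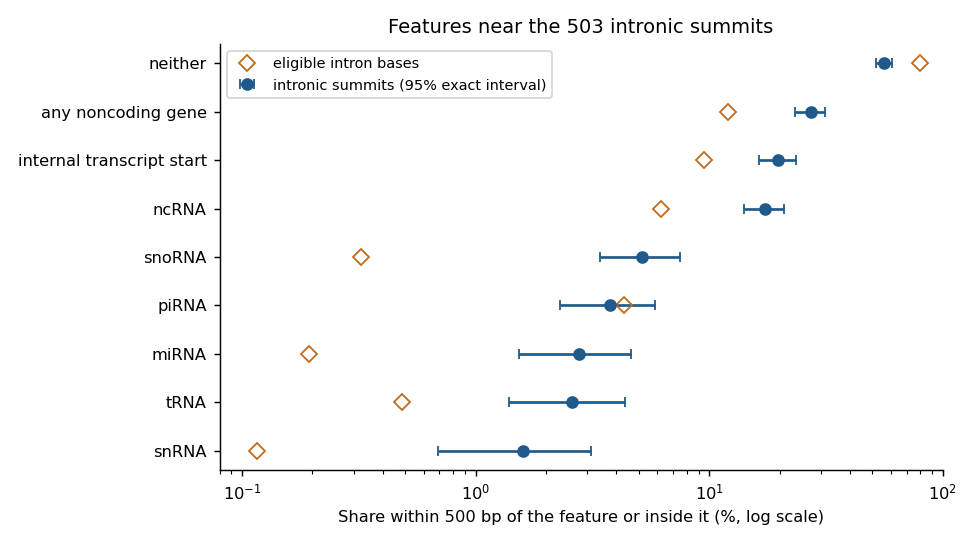
Share of the 503 intronic summits (circles, with 95% exact intervals) and of the eligible intron bases (open diamonds) within 500 bp of a feature or inside it, on a log scale; for noncoding classes the distance is to the 5′ end. The circles for snoRNA, miRNA, tRNA and snRNA genes stand well to the right of their diamonds, and those for piRNA genes do not.

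MicroRNA genes were near 14 summits (2.78%, against 0.194% of bases), in 9 hosts. One on the strand of the host lay near 13 of them, or 324 per Mb of such bases, and one on the other strand near 3, or 221 per Mb. The 2 summits of F09A5.3 had both, with mir-55b (F09A5.15) on the host's strand. The gcn-1 summit at 2172409 lay 43 bp before mir-229, with a signal of 207 and ranks of 309 and 86. In F09A5.3 the stronger summit, with its signal of 399, lay upstream of the whole antisense cluster, and the weaker one at 13144645 (186) had rank 120 in replicate 1 and no region in replicate 2. In Y67D8A.2 a summit 154 bp before mir-58.1, a member of the family of the fly bantam microRNA, had a signal of 161 and ranks of 341 and 88. In K01F9.2 the summit 60 bp before mir-90 had 143 and ranks of 336 and 728. The summit near mir-62, in ugt-50, lay 488 bp before it, in another intron and 188 bp upstream of an internal start of the host, with a signal of 139 and ranks of 437 and 714. Intron 1 and intron 5 of gid-2 had summits within 30 bp of mir-82 and mir-81, with signals of 65.6 and 66.9. Over the class, 12 of 14 summits lay within 200 bp of the nearest microRNA 5′ end, at a median of 76 bp upstream.

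The heterochronic gene pair of lin-4, a microRNA gene of larval timing, and lin-14, the message it represses, both appeared among the hosts and nested genes. The summit 121 bp before lin-4, in intron 9 of F59G1.4, had a signal of 58.0 and ranks of 3508 and 2094, close to the lowest signal of the list. It was chosen after its values were seen. The lin-14 gene itself is described with the hosts.

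Small nucleolar RNA genes, whose products guide modification of ribosomal and other RNAs, were near 26 summits in 26 hosts (5.17%, 3.40 to 7.48%, against 0.324% of bases). Of these, 24 lay within 200 bp of the 5′ end, and 6 lay inside the gene. The snoRNA lay on the host's strand at 20 of them, in 287 summits per Mb of such bases, and on the other strand at 6, in 329 per Mb, so summits stood at snoRNA genes of both strands. The strongest were in C08D8.1 at C08D8.3 (signal 336, ranks 159 and 16), in Y55F3BR.2 at Y55F3BR.9 (306, ranks 252 and 18) and in plpr-1 at T06D8.11 (280, ranks 293 and 24). All 3 summits lay past the 5′ end, by 151, 115 and 137 bp, and ranked higher in replicate 2 than in replicate 1. Each of these 3 snoRNA sequences occurs once in the genome.

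Small nuclear RNA genes were near 8 summits (1.59%, against 0.116% of bases). The sup-6 pair was described above. In C33A12.3 the summit 412 bp past the start of smy-1, and inside smy-2, which is annotated as snoRNA, had a signal of 193 and ranks of 383 and 128. The 3 summits of glr-2 lay at sls-2.16 (signal 161, ranks 2463 and 44), at sls-2.18 (111, ranks 2564 and 171) and at sls-2.5 (65.9, ranks 10005 and 620). All 3 glr-2 summits stood much higher in replicate 2. The sup-6 and sls-2 sequences printed above each occur once in the genome, whereas F08G2.11 occurs 9 times and W05B2.8 17 times, so reads inside those cannot be assigned to a copy. Near-identical copies were not searched for.

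Transfer RNA genes were near 13 summits (2.58%, 1.38 to 4.38%, against 0.484% of bases), all within 200 bp of the 5′ end, although their transcription is the task of RNA polymerase III. The strongest was in nhr-17, 56 bp before the tyrosine gene C02B4.t2, with a signal of 286 and ranks of 43 and 262. The summit 108 bp before K11H12.t1, the selenocysteine gene, had 111 and ranks of 882 and 1178, and the one 20 bp before the leucine gene C14B9.t2 had 95.4 and ranks of 1932 and 598. The gene C02B4.t2 has 6 exact copies in the genome, and some others have up to 20, so the same limit holds for them. K11H12.t1 and C14B9.t2 are unique. Whether the peaks at transfer RNA genes, or at the other noncoding genes, are polymerase II was not tested.

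Genes annotated as ncRNA, a mixed class that includes rpr-1, the RNA of RNase P, were near 87 summits (17.3%, 14.1 to 20.9%, against 6.25% of bases). They lay on the strand opposite to the host at 71 of them, in 53.8 summits per Mb of such bases, and on the host's strand at 25, in 36.5 per Mb, some summits having both. Part of the 87 also lay near a snoRNA, snRNA, tRNA or miRNA gene and are counted in both classes. These include the strongest, beside sup-6 (736) and the mir-54 cluster (399). The excess and the strand counts of ncRNA genes are therefore not separate from those of the short RNA genes. At W06H8.6 the summit at 6224714 had a signal of 304 and ranks of 57 and 204, and a second at 6225150 had 204 and ranks of 183 and 187. Genes for piRNAs, the small RNAs that silence foreign sequence in the germ line, were near 19 summits (3.78%, 2.29 to 5.84%), against 4.30% of bases, so they showed no excess. Their strongest summit lay 391 bp before 21ur-5 in the glutamine synthetase gene gln-3 (signal 208, ranks 216 and 195). Long intergenic RNA genes were near 4 summits (0.795%, 0.217 to 2.02%, against 0.0612% of bases), of which 2 lay inside linc-142, in scd-1, and 2 inside linc-90, which overlaps gei-4. Antisense RNA genes were near 2 (0.398%, against 0.180%) and pseudogenes near 4 (0.795%, against 0.875%).

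The hosts were 307 genes, of which 94 held at least 2 summits and 24 held at least 4. These 24 genes held 125 of the 503 summits. The gene lin-14 held 10, with signals from 59.9 to 112, ranks from 605 to 3743 in replicate 1 and from 1572 to 5737 in replicate 2 in 9 of them, and no replicate 2 region in the other. They were spread from 1892 to 17226 bp from its 5′ end over 5 introns, and the strongest lay 127 bp upstream of an internal start. The gene ZK470.2 held 8 (signals 68.1 to 149), 6 of them in intron 4, of 7601 bp. The gene ncl-1, which limits the size of the nucleolus, held 7 (60.4 to 103), of which 5 lay in intron 1, of 7302 bp. In the nuclear hormone receptor gene nhr-19 all 5 summits (61.5 to 120) lay in intron 2, of 4213 bp, and 1 of them ranked 366 in replicate 1 and 22235 in replicate 2. In hlh-30, which encodes the worm TFEB, a regulator of autophagy and lysosome genes, the 5 summits had signals from 66.1 to 124. In Y111B2A.12 the summits came in close pairs 201 and 202 bp apart that matched shared regions in at least 1 replicate, so its 5 summits mark 3 places.

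**Figure D4:**
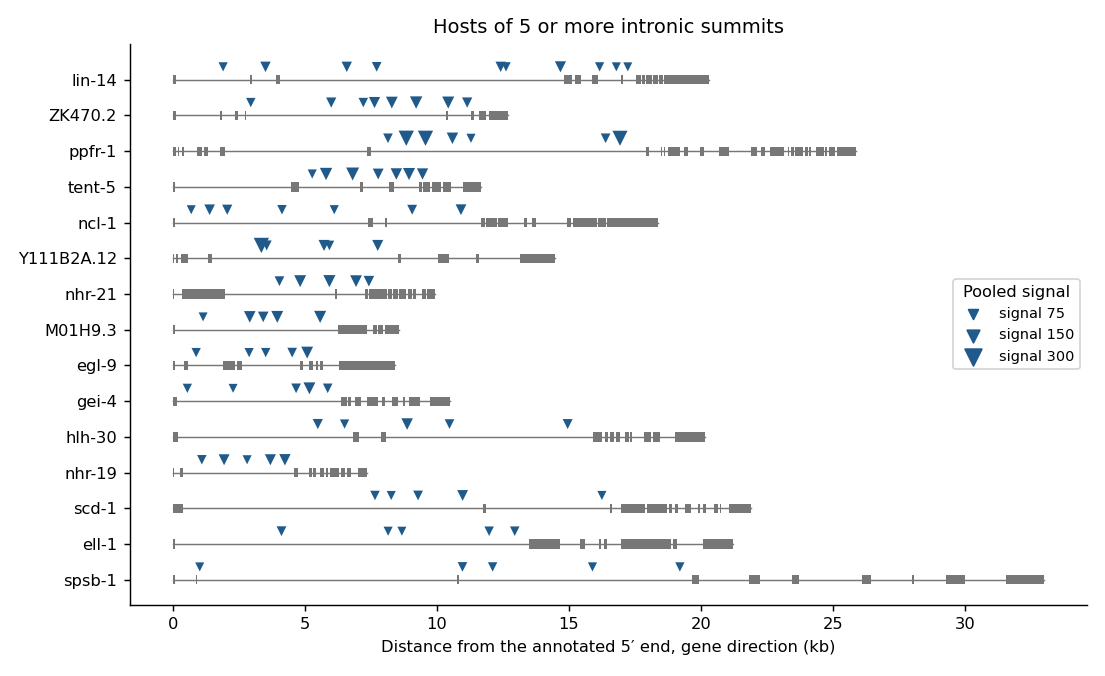
Maps of the 15 genes with 5 or more intronic summits, by distance from the annotated 5′ end (kb). Grey boxes are merged coding-gene exons, lines are introns, and triangles are summits with their size growing with the pooled signal. Summits of lin-14 spread from 1.89 to 17.2 kb, and those of nhr-19 all lie in one intron.

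Other hosts of many summits were ppfr-1, a phosphatase regulatory subunit gene, and tent-5, with 7 each. In ppfr-1, 3 of the summits had signals of 248, 245 and 239, in an intron of 10404 bp that also holds mir-71 and mir-2, and they ranked 178, 77 and 98 in replicate 1 and 52, 132 and 310 in replicate 2. With 5 each there were also nhr-21, M01H9.3, gei-4, scd-1, ell-1 (an elongation factor gene), spsb-1 and egl-9. Among the hosts with 4 were mnk-1 and aak-2, both for protein kinases, rpoa-1, which encodes a subunit of RNA polymerase I, kin-1, for the catalytic subunit of protein kinase A, and cct-5, for a chaperonin subunit.

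Hosts often had a peak at their own ends too. At the host's own 5′ end, to within 500 bp, an optimal summit lay in 89 of 307 hosts (29.0%, 24.0 to 34.4%), against 6.07% of all coding genes and 5.79% of the 6117 coding genes with at least 1000 eligible bases. Within 500 bp of the 3′ end, 97 hosts had one (31.6%, 26.4 to 37.1%), against 5.07% of those 6117 genes. The hosts were not held to the minimum of 1000 eligible bases (cyc-2.1 had 62), so hosts and comparison genes are not fully alike. At neither end was there an optimal summit in 167 hosts.

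Which kinds of gene were hosts was described with 15 lists by gene name, which together took 24.3% of the summits, 0.97 times their share of the eligible bases. Nuclear hormone receptors had 27 summits in 13 of their genes (5.37%, 3.57 to 7.71%, against 1.46% of the eligible bases), led by nhr-17, nhr-85 (162, ranks 172 and 5537) and nhr-21 (142, ranks 351 and 474). The leading nhr-17 summit was the one at the transfer RNA gene C02B4.t2, and nhr-21 and nhr-19 held 5 summits each. Other transcription factors had 34 in 14 genes (6.76%, against 2.25%), led by zip-2 and hif-1 and with lin-14 alone giving 10. Signalling kinases and phosphatases had 20 (3.98%, 2.45 to 6.07%, against 2.48%), led by mnk-1 (205, ranks 249 and 102) and aak-2 (131, ranks 349 and 1669). Lipid and energy metabolism had 10 (1.99%, 0.957 to 3.63%, against 1.32%), led by icl-1, which encodes the glyoxylate cycle enzymes. The icl-1 peak was the widest of all, at 3409 bp, with a signal of 198, rank 71 in replicate 1 and no replicate 2 region. That width is close to the length of the gene, 3673 bp, which also had an optimal summit at its 5′ end.

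Several families of developmental and neuronal genes held 0 or 1 summits. Homeobox genes had 0 summits with 1.10% of the eligible bases, voltage-gated and potassium channel genes 0 with 2.31%, and transmitter and peptide receptors 0 with 1.75%; a count of 0 of 503 allows a share of up to 0.596% taken as 3 counts, and its exact interval reaches 0.731%. Adhesion and axon guidance had 1, in the ankyrin gene unc-44 (0.199%, against 2.39%; signal 114, ranks 561 and 1231), and muscle structure had 1, in the spectrin gene unc-70 (0.199%, 0.00503 to 1.10%, against 1.03%). The unc-70 summit lay 74 bp before the nested snoRNA gene K11C4.6. For the other lists the interval of the share also held the share of eligible bases. Ligand-gated channel genes had 3 summits, all of them the glr-2 summits at SL2 RNA genes (0.123 to 1.73%, against 1.07%). Synaptic and neuronal genes had 8 (0.689 to 3.11%, against 2.86%) and small GTPase regulators 8 (0.689 to 3.11%, against 1.85%). Cuticle and matrix genes had 3 (0.123 to 1.73%, against 1.69%), chromatin and cell cycle genes 4 (0.217 to 2.02%, against 0.893%), and RNA-binding genes 3 (0.123 to 1.73%, against 1.04%). In whole larvae, fewer cells of a type and less polymerase per cell cannot be told apart.

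Most of the summits, 282 (56.1%, 51.6 to 60.5%), lay near neither an internal start nor a noncoding gene, against 79.8% of eligible bases. Their introns were long, with a median of 3666 bp, and 102 of them were in introns over 5000 bp. After mdt-26 the strongest were the second T26A8.4 summit (317, ranks 42 and 162), one in ppfr-1, Y111B2A.12 (248, ranks 109 and 152) and epg-9 (229, ranks 110 and 356). For mnk-1 the summit at 10552213 had a signal of 205 and ranks of 249 and 102. These strong summits were thus found in both replicates.

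The sequence around the summits was richer in G and C than intron sequence at large. In the 200 bases around the summit GC averaged 44.0% ± 5.93 (SD, n = 503 windows), against 43.0% ± 5.82 for all optimal peaks and 32.9% ± 7.54 for the 107575 windows that tile the eligible introns. Windows that were mostly soft-masked repeat made up 2.58% of the summits and 51.4% of the tiles.

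Several short motifs, read on either strand, differed along with GC. GAGAGA stood in 38.0% of the summit windows, 27.2% of the windows of all optimal peaks and 8.63% of the tiles, and in 16.7% of the 16340 tiles with 40 to 48% GC, where 39.1% of the 266 summits in that range had it. CACGTG stood in 10.1% of the summit windows, against 7.54% of all optimal peaks and 2.70% of the tiles. In that GC range it stood in 10.5% of the summits and 5.82% of the tiles. It was more common among summits near neither feature (13.8%) than among those near short noncoding genes (3 of 60). The B box letters GTTCGANNC stood in 12 of the 60 windows near short noncoding genes, in 0 of the 92 near internal starts and in 1.35% of the tiles. TATAAA was less common than in the tiles (11.3% against 23.0%) but not at like GC (12.0% of summits against 9.93% of tiles). TGATAA stood in 14.1% of the summit windows and 16.1% of the tiles, but at like GC the order turned, with 13.9% of summits and 9.79% of tiles. TTTCAG stood in 17.1% and in 36.2% of the tiles, and at like GC in 19.2% and 22.2%. CCAAT stood in 30.6% (tiles 33.3%, at like GC 32.3% and 34.5%), and CTGTTTCA, the core of the motif upstream of piRNA genes, in 1.79% (tiles 1.96%, at like GC 1.13% and 0.967%). Like GC did not make the sets alike in repeats. In that range 28.7% of the tiles were mostly soft-masked, against 1.13% of the summit windows. A match is a run of letters and not a bound site.

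The run CTGCGTCTC was noticed in the windows of the strongest summits, where epg-9 has it 2 times, and was counted afterwards. It stood in 32 summit windows (6.36%) of 27 hosts, in 5.41% of all optimal peaks and in 1.05% of the tiles. With 40 to 48% GC it stood in 5.64% of the 266 summit windows and 3.68% of the tiles. Of the 32, 22 lay near neither feature, where 56.1% of all 503 summits lay. Near a short noncoding gene lay 0 of the 32, against 11.9% of all 503. Their signals ran from 60.4 to 304 with a median of 82.8, against 74.4 over all 503. Among the strongest of both replicates were 18 of the 32, against 40.8% of all 503. Because the run was noticed at the strongest summits, these signals and ranks are no separate evidence about it.

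Summits were spread unevenly over the chromosomes. Chromosome II had 98, or 26.1 per Mb of eligible bases, X had 94, III had 92, IV had 85, I had 74 (14.6 per Mb) and V had 60, the lowest density. As a share of each chromosome's optimal peaks, the order was different. The share was 21.8% on X, 18.6% on IV and 17.9% on II, against 16.5% over the whole list. It was 15.7% on III, 14.8% on I and 11.4% on V.

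The replicates agreed only in part on these peaks. A region within 200 bp was present in the permissive list of replicate 1 for 499 of the 503 summits, in that of replicate 2 for 463, and in both for 459. Among the 3052 strongest peaks of each replicate, as many as the optimal list holds, replicate 1 had 390 of the summits (77.5%) and replicate 2 had 286 (56.9%). Both had 205 (40.8%, 36.4 to 45.2%), against 46.3% of all optimal peaks, so the intronic summits stood slightly below the background. The share was lower still, at 35.7%, for exonic summits away from ends. It was 47.1% between genes, 46.9% near 5′ ends only, 50.1% near 3′ ends only and 54.3% near both. Another 185 of the intronic summits were among the strongest of replicate 1 only, 81 of replicate 2 only, and 32 of neither. Across the 459 summits found in both, Spearman's rho of the ranks was 0.13, against 0.21 over the 2806 optimal peaks with both, as a description across peaks that share libraries. This rho was 0.08 for exonic summits away from ends and above 0.13 in the other position classes.

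**Figure D5:**
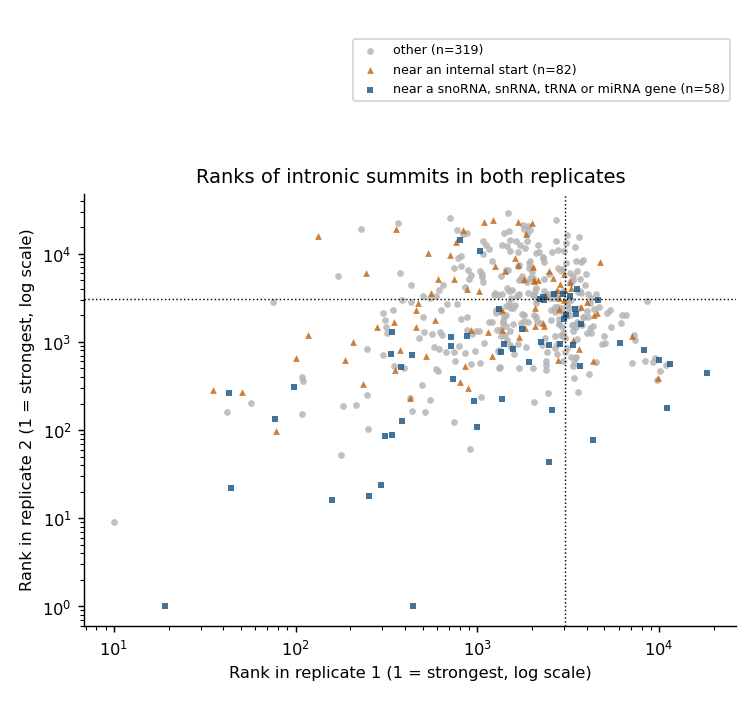
Rank of each intronic summit in replicate 1 (horizontal) and replicate 2 (vertical), both on log scales with 1 the strongest, for the 459 summits with a region in both lists. Dotted lines mark rank 3052; squares are summits near a snoRNA, snRNA, tRNA or miRNA gene, triangles those near an internal start. Most squares lie at better ranks in replicate 2 than the grey points, with a median rank of 809 in that replicate.

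Which replicate ranked a summit higher differed with its surroundings. Summits near short noncoding genes had median ranks of 1578 in replicate 1 and 809 in replicate 2, and 36 of 60 (46.5 to 72.4%) were among the strongest of both. Summits near an internal start had median ranks of 1374 and 2476, and 35 of 92 (38.0%, 28.1 to 48.8%) were among the strongest of both. Those near neither had 1756 and 2329, with 110 of 282 (39.0%). The strongest summits with no replicate 2 region were those of icl-1, the weaker F09A5.3 summit, tent-5 at 5378715 (148) and gei-4 at 349638 (134, rank 140 in replicate 1). Why the replicates differ in this way was not tested.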

How the data were processed

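ChIP-seq peak lists in narrowPeak form were used as deposited, in ce11, for 2 biological replicates of 1 group. Per the deposited notes, the optimal list came from the 2 replicate lists and the pooled list, and peaks had been called per replicate and on pooled reads as permissive lists of 30000 regions. The signal in column 7 is a value of the authors' on an unstated scale, and was used only within a list, to rank and describe peaks. The −log10 q value in column 9 of the deposited lists was only described. Not given in the sources used here are the aligner, peak caller, threshold on the irreproducible discovery rate and number of reads, so depth is unknown, and a place without a summit is not one without polymerase. Nothing in the labels says that the replicates came from separate cultures.

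Summits were placed on Ensembl release 115 genes of WBcel235, with sequence from the RefSeq assembly of that name, using Python 3.11.15, numpy 2.4.6, pandas 2.3.3 and scipy 1.17.1. The placing was tested on positions of known class. The background is every base that meets the same rule. Repeats were left in it, and 51.4% of its 200-base tiles were mostly soft-masked, against 2.58% of the summit windows. What this does to the densities and shares was not tested. Introns are gaps between merged exons. A replicate region matched within 200 bp. Shares carry exact Clopper-Pearson 95% intervals. No test was run, because there is 1 group. The summits, gene lists and motifs were chosen with earlier results of these data known.

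Named genes are, by rule, the 20 hosts with the strongest summit, hosts of 4 or more summits, the 3 strongest of each noncoding class, the 8 strongest near internal starts and 5 near neither, the 3 longest introns, the 2 strongest of each gene list, the 5 with the best ranks in both replicates and 3 strongest absent from a replicate, and 2 on each side of the 500 bp limit. Not all are printed. Sequences are printed for some nested genes only, and one item is not reported here.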

Additional observations from a re-analysis of the deposited data

How the results depend on the processing

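Of 61 values under 15 alternatives, 37 stayed within the interval of the value reported (counts within 1.5 times) and 24 moved. With summits over 250 bp from gene ends the median intron length was 2093 bp, and with over 1000 bp it was 3725 bp with 36.2% in introns over 5000 bp. The 1526 stronger optimal peaks held 220 such summits, with a median signal of 109, a median intron of 2032 bp, 25.5% in long introns and 71.4% among the strongest of both replicates. Among 2 times as many pooled regions there were 1081, of which 19.4% were among the strongest of both. Peaks with no base in a coding exon had a median intron of 3907 bp, 38.0% in long introns, 38.5% in first introns and 13.4% near internal starts. With introns of the longest transcript the median was 3278 bp and 35.8% were long. Windows of 250 and 1000 bp gave 8.75 and 38.4% near internal starts (eligible bases 4.19 and 19.7%) and 21.5 and 33.0% near noncoding genes (8.19 and 18.5%). Matching within 100 or 500 bp gave 34.2 and 46.1% in both replicates. Leaving out a replicate, by taking the strongest 3052 peaks of the other, gave 28.1 to 36.1% in first introns and 23.2 to 29.3% near noncoding genes, the lower value of the first without replicate 1 and of the second without replicate 2. No paired analysis was possible because there was only 1 group of samples. Depth is unknown, so weak summits may be missing.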
